A study of Mus musculus with 15 samples.

Results

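The 9 genes described here encode secreted factors that act on blood and lymphatic vessels: Vegfa, Vegfb, Vegfc, Pgf, Angpt1, Angpt2, Apln, Fgf1 and Cxcl12. They were chosen by name from the 55536 genes of the deposited tables, and each name matched 1 gene in both tables. In GENCODE coordinates on build GRCm38 these are protein-coding genes at chr17:46016993-46032369 (Vegfa), chr19:6982473-6987651 (Vegfb), chr8:54077606-54187096 (Vegfc), chr12:85166635-85177790 (Pgf), chr15:42424723-42676977 (Angpt1), chr8:18690263-18741562 (Angpt2), chrX:48025146-48034853 (Apln), chr18:38838673-38929472 (Fgf1) and chr6:117168535-117181367 (Cxcl12). RNA was measured in skeletal muscle of 15 mice labelled male and aged 2 months, in 3 groups of 5. The control group was wild type, the knockout group had Pdgfrb deleted in cells that express myogenin, and the third group carried D489V, a form of Pdgfrb that signals constitutively, likewise in myogenin-expressing cells. Pdgfrb encodes a receptor for platelet-derived growth factor. Myogenin is switched on in differentiating muscle cells, so vessel cells are not the labelled target of either allele. The labels name no individual muscle, strain, litter or processing batch, and nothing in them says whether samples of a group came from separate litters, so p-values measure the spread between these samples.

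Vascular endothelial growth factors bind receptor tyrosine kinases on endothelial cells. Vegfa, the main driver of vessel sprouting, signals through Kdr, while Vegfb and Pgf bind Flt1, and Vegfc acts mainly through Flt4 on lymphatic endothelium. Angpt1, made largely by cells around the vessel, activates the receptor Tek and stabilises the vessel wall, and Angpt2, stored and released by endothelial cells, can oppose it. Apln is a peptide of sprouting endothelium that binds Aplnr, Fgf1 is a fibroblast growth factor, and Cxcl12 is a chemokine that binds Cxcr4 and Ackr3. In skeletal muscle the fibres themselves are a known source of Vegfa, whose production supports the capillaries around them.

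The values are counts per gene normalized by the authors and rounded to whole numbers, and their sum was 29815559 to 36489777 per sample. Pdgfrb, the targeted gene, was read at 1673 to 1848 in controls, while the knockout range was 958 to 1628 and the D489V range 820 to 1062. Both mutant groups lay below all controls, and 4 of 5 knockout samples lay above all D489V samples. The summed level of 10 muscle fibre markers, Acta1 and Ckm among them, was between 6.88e+06 and 9.95e+06 in every sample. Some libraries stood apart. Knockout replicate 3, labelled male, held 3165 normalized counts of Xist, the RNA of the inactive X chromosome, against at most 101 elsewhere, and 367 of the Y-linked Ddx3y, against 1437 to 3887 elsewhere, so that both RNAs were present in this library. The summed level of 10 lymph node and lymphocyte markers was 5709 in control replicate 5 and 2229, 5477 and 1478 in knockout replicates 3 to 5, against at most 294 in the other samples. D489V replicate 3 had a summed Schwann cell and nerve marker level of 50426, against 12548 to 15328 in the other D489V samples.

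The sequence just before the start of 3 of the genes is printed because their RNA carries the results below: Vegfc for the difference between both mutant groups, Apln for the one separation from control, and Vegfa as the most abundant. Each is the 250 bases before the most upstream RefSeq start (build GRCm38.p6), written 5′ to 3′ in the direction of the gene, and capitals mark GC boxes (GGGCGG on either strand), motifs bound by Sp1-type factors.
Vegfc, chr8:54077282-54077531, plus strand: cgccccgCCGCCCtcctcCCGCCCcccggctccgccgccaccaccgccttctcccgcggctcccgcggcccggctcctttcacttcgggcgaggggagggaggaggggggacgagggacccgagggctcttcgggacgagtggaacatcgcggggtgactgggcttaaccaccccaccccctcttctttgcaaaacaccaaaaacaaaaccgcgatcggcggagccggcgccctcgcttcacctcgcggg
Apln, chrX:48034854-48035103, minus strand: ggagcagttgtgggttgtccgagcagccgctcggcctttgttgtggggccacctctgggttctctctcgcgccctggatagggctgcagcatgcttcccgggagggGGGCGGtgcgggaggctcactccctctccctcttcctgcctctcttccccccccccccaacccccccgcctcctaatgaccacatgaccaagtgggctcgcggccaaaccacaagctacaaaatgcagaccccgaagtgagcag
Vegfa, chr17:46032378-46032627, minus strand: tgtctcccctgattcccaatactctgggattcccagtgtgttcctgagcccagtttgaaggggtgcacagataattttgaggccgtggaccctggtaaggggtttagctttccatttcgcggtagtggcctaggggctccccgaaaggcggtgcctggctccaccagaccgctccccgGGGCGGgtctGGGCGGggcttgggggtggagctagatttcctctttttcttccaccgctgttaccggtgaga
Windows were used for 6 of the 9 genes (also Vegfb, Pgf and Cxcl12). The source of the windows held none for Angpt1 and Angpt2, and Fgf1 was not used here. A GC box was present in 6 of 6 ligand windows, against 32.7% of all 32851 windows of this length in the table, some of which belong to the same gene. The Vegfc window held 2, the Apln window 1 and the Vegfa window 2, and adjoining matches were counted separately. The windows had a GC content of 59.2% to 76.4%, against a median of 52.4% over all windows. The hypoxia response core ACGTG, the AP-1 site TGANTCA, the TATA box TATAAA and the ETS site CCGGAA, each searched on both strands, were in 0 of 6 ligand windows, and in 16.6%, 6.75%, 12.4% and 12.0% of all windows.

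The ligands differed widely in level. Per kilobase of annotated exon, the mean over all 15 samples was 2045 normalized counts for Vegfa and 1392 for Vegfb, followed by Cxcl12 at 321. Vegfa was above Vegfb in every sample, by a length-scaled ratio between 1.06 and 1.81. Fgf1, Angpt1 and Apln came next with 123, 87 and 80.9 per kilobase, with standard deviations of 32, 26.1 and 51.1, and their ranges over the 15 samples overlapped. Angpt2, Vegfc and Pgf had the lowest means at 32.1, 31.5 and 24.9 per kilobase, with standard deviations of 8.82, 12.7 and 5.35, and their ranges also overlapped. For these less abundant genes, the order within single samples was not compared. All 9 passed the filter for testing, which asked for at least 10 normalized counts in 5 of the 10 samples compared. Values below are normalized counts per sample, not scaled for length.

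**Figure D1:**
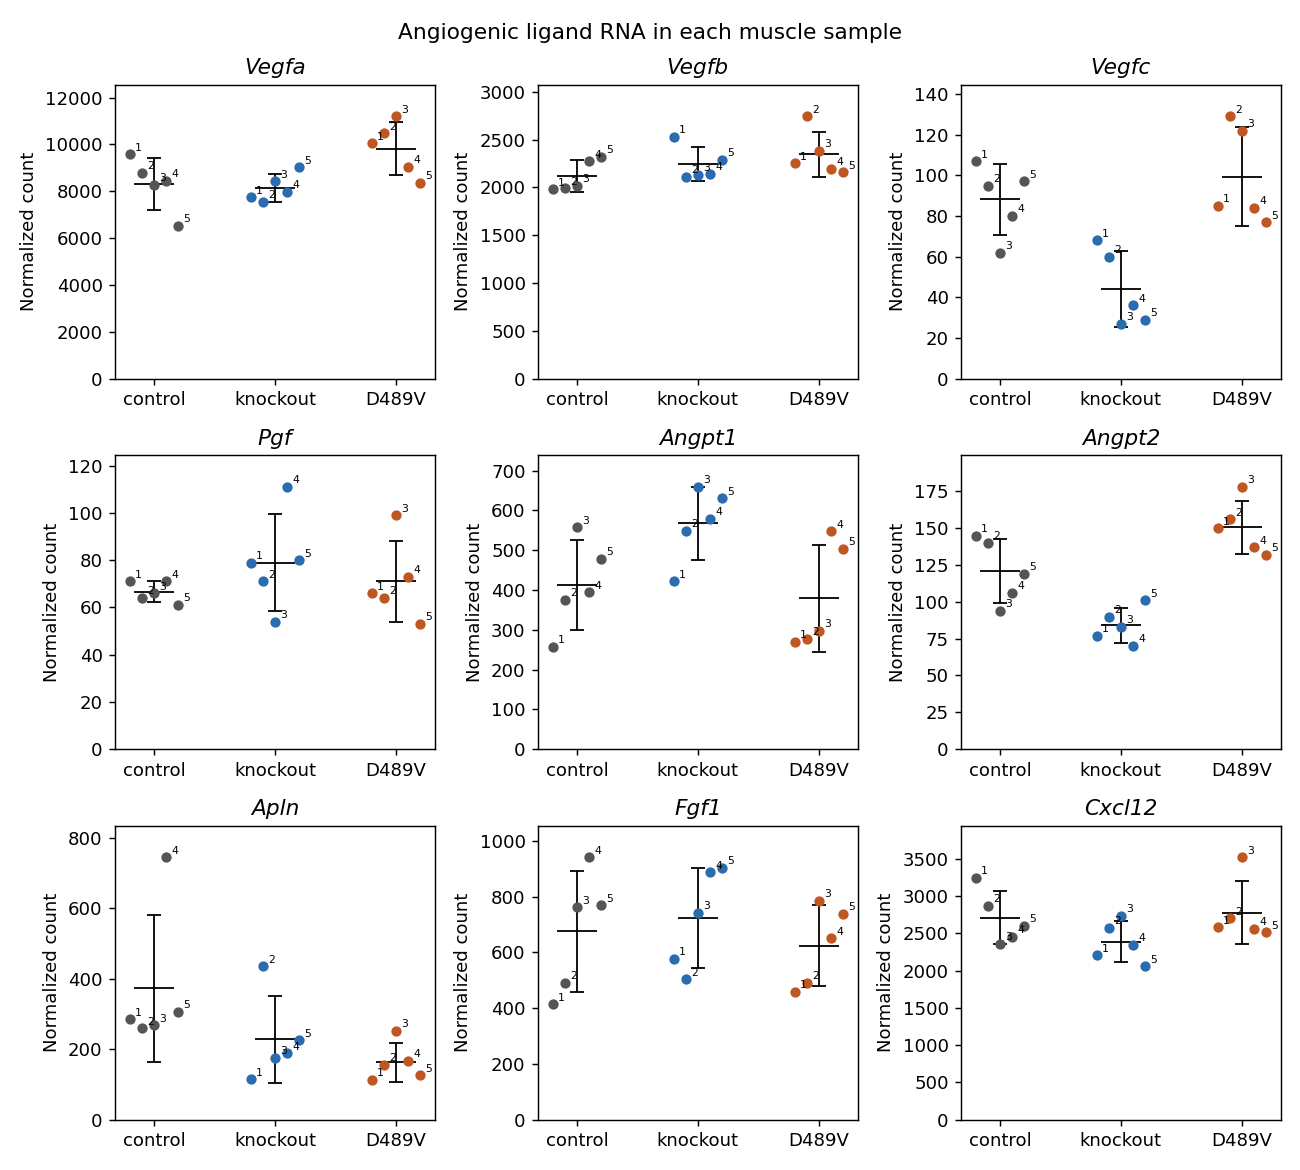
Normalized count (vertical axis, from 0) of each ligand gene in control, knockout and D489V muscle. Each point is 1 sample, numbered by replicate, and the bars give the mean and standard deviation (n = 5). Vegfc in knockout samples lay between 27 and 68, below all D489V samples at 77 to 129.

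Each comparison of 5 against 5 samples was tested over all genes with limma on log2(value + 1), two-sided, and genes with an adjusted p (Benjamini-Hochberg, over all genes tested) under 0.05 were called. In knockout against control, limma called 0 of the 9 ligands, against 0.00656% of all 15234 genes tested (1 gene, lower), and 3 ligands had an unadjusted p under 0.05, as did 15.1% of all genes. In D489V against control, limma called 0 of 9, against 0.0587% of 15339 genes (0.0261% higher and 0.0326% lower), and 1 ligand had an unadjusted p under 0.05, as did 9.43% of all genes. In knockout against D489V, limma called 2 of 9, Vegfc and Angpt2, both lower in knockout. That is 22.2% of the ligands, close to the 20.8% called among all 15299 genes (10.5% higher and 10.3% lower), and 4 ligands had an unadjusted p under 0.05 against 37.7% of all genes, so as a group the ligands were called about as often as any gene. That background depends on the libraries in the fit. Without D489V replicate 1, limma called 1398 of 15098 genes, and without D489V replicate 2 it called 1526 of 15113. Without D489V replicate 4 it called 3686 of 15118. Over the fits without one replicate, 2 to 4 of the 9 ligands were called. The groups did not overlap for 0, 1 and 2 ligands in these comparisons, against 2.24%, 2.16% and 13.9% of all genes tested. The ligands concerned were lower in the first-named group, as were 1.25%, 1.06% and 6.7% of all genes, while 0.991%, 1.1% and 7.22% were higher. Both mutant groups were compared with the same 5 controls, so those comparisons are not independent of each other.

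**Figure D2:**
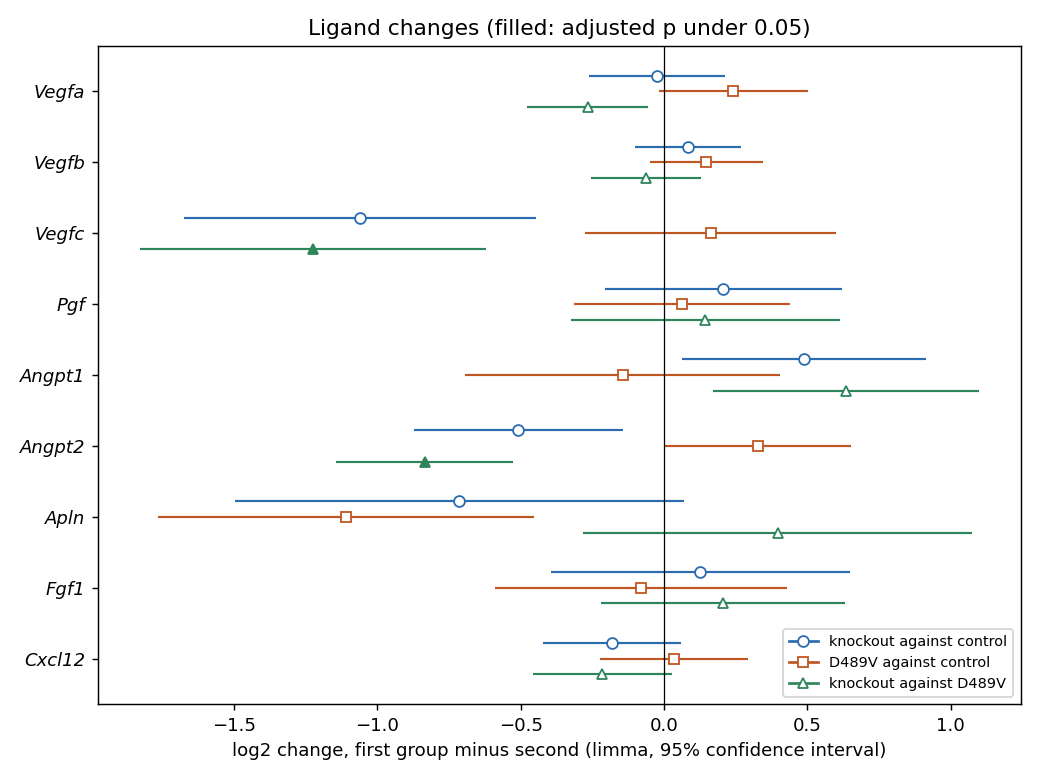
log2 change of each ligand gene on the log2(value + 1) scale (horizontal axis) with its 95% confidence interval from limma, for the 3 comparisons. Filled symbols, Vegfc and Angpt2 in knockout against D489V, passed an adjusted p of 0.05 over all genes.

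Vegfc, the lymphatic growth factor, was the ligand with the largest log2 change between the mutant groups. Controls 1 to 5 held 107, 95, 62, 80 and 97, knockout samples 1 to 5 held 68, 60, 27, 36 and 29, and D489V samples 1 to 5 held 85, 129, 122, 84 and 77. Every knockout sample lay below every D489V sample, and all but knockout 1 lay below every control. The mean was 88.2 ± 17.5 in controls, 44 ± 18.8 in knockout and 99.4 ± 24.2 in D489V (SD, n = 5). Knockout against D489V gave a log2 change of -1.22, standard error 0.28 (limma adjusted p 0.0136). The exact permutation p was 0.00794, which is as small as 5 against 5 samples allow. It follows from the groups not overlapping, as was so for 13.9% of all genes. Against control the change was -1.06 (95% confidence interval -1.68 to -0.45), which did not pass over all genes (limma adjusted p 0.276). In D489V against control it was 0.16 (95% confidence interval -0.27 to 0.60, limma adjusted p 0.838). The 3 lowest values belonged to knockout replicates 3 to 5, which also had the high lymphocyte marker levels. Without these, which leaves only knockout 1 and 2, the difference from D489V was -0.60 (limma adjusted p 0.158). In that smaller fit 565 of all genes were called, against 3181 with all samples. Without control 5 as well, the difference from control was -0.39 (limma adjusted p 0.71). Without knockout replicate 3 alone, Vegfc differed from D489V by -1.08 (limma adjusted p 0.0277).

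The other members of the family moved less. Vegfa held 9571, 8787, 8281, 8447 and 6538 in controls, 7745, 7539, 8432, 7980 and 9030 in knockout, and 10047, 10475, 11197, 9043 and 8362 in D489V. D489V samples 1 to 3 were the highest of all 15 samples, while D489V 4 and 5 lay within the range of the controls. In knockout against D489V the log2 change was -0.27 (95% confidence interval -0.48 to -0.06), which did not pass (limma adjusted p 0.0681), and it passed without D489V replicate 5 (-0.32, limma adjusted p 0.0327) and with array weights (-0.31, limma adjusted p 0.0223). Against control, Vegfa changed by -0.02 in knockout (95% confidence interval -0.26 to 0.21) and by 0.24 in D489V (95% confidence interval -0.02 to 0.50), with limma adjusted p of 0.926 and 0.564. The sign of the first of these turned with upper-quartile rescaling. Gene-level counts do not separate the Vegfa splice forms, which differ in how they bind matrix.

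Vegfb, a ligand of Flt1, held 1980, 1989, 2014, 2273 and 2320 in controls, 2532, 2114, 2131, 2141 and 2288 in knockout, and 2252, 2743, 2381, 2194 and 2159 in D489V. The groups overlapped, and of the 9 ligands it had the smallest spread over the 15 samples relative to its mean. The 95% confidence intervals of its log2 changes lay between -0.26 and 0.34 in all 3 comparisons. Pgf, placental growth factor, held 71, 64, 66, 71 and 61 in controls, 79, 71, 54, 111 and 80 in knockout and 66, 64, 99, 73 and 53 in D489V. The groups overlapped in each comparison, with log2 changes of 0.21, 0.06 and 0.14 and limma adjusted p of 0.583, 0.936 and 0.655 for knockout, then D489V, against control, and for the mutant groups against each other.

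Angpt2, the antagonist of the angiopoietin pair, was the ligand with the lowest p in knockout against D489V. Controls 1 to 5 held 145, 140, 94, 106 and 119, knockout samples 77, 90, 83, 70 and 101, and D489V samples 150, 156, 178, 137 and 132. All knockout samples lay below all D489V samples, and the control samples lay between and overlapped both groups. The mean was 121 ± 21.8 in controls, 84.2 ± 11.9 in knockout and 151 ± 18.1 in D489V (SD, n = 5). The log2 change in knockout against D489V was -0.83, standard error 0.14 (limma adjusted p 0.00459), and it was called in all 21 alternatives run. It was -0.51 in knockout against control (95% confidence interval -0.87 to -0.14, limma adjusted p 0.302) and 0.33 in D489V against control (95% confidence interval -0.00 to 0.65, limma adjusted p 0.531).

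Angpt1, the agonist, went the other way. It held 257, 376, 557, 394 and 478 in controls, 422, 548, 659, 579 and 630 in knockout and 270, 278, 297, 547 and 503 in D489V. Knockout was the highest group on average, at 568 ± 92.1 against 412 ± 113 in controls and 379 ± 135 in D489V (SD, n = 5), but the groups overlapped, and D489V 4 and 5 lay far above D489V 1 to 3. The log2 change in knockout against D489V was 0.63 (95% confidence interval 0.17 to 1.10), just outside the threshold (limma adjusted p 0.0524). It passed in 7 of 21 alternatives, among them those without knockout 1 (0.74, limma adjusted p 0.0417), D489V 4 (0.78, limma adjusted p 0.0173) or D489V 5 (0.75, limma adjusted p 0.0288), and over all 21 the adjusted p ran from 0.0173 to 0.382. Against control it was 0.49 in knockout and -0.14 in D489V (limma adjusted p 0.312 and 0.891).

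The length-scaled ratio of Angpt1 to Angpt2 summarises the pair and is given as a description. It was 1.257, 1.90, 4.20, 2.64 and 2.85 in controls, 3.89, 4.32, 5.63, 5.86 and 4.42 in knockout, and 1.28, 1.263, 1.18, 2.83 and 2.701 in D489V. Every knockout sample lay above every D489V sample, and above every control except control 3. Within the controls, samples 1 and 2 had the lowest ratios and the highest Angpt2.

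Markers of several other cell types were lower in knockout than in D489V as well. Their called counts stand beside the 20.8% of all genes called there, 10.5% higher and 10.3% lower. The 10 endothelial markers, including Pecam1 and Cdh5, were all called lower, and none was at 0 in any sample. Their summed level was 17882 to 26727 in controls, 10714 to 17001 in knockout and 20426 to 24477 in D489V, so that every knockout sample lay below every other sample. Knockout 1 and 2, at 16623 and 17001, were close to the lowest control. Knockout 3 to 5, with the high lymphocyte marker levels, held 10714, 12616 and 12544. In knockout against control, limma called 0 of the 10. Of these, 9 had an unadjusted p under 0.05, against 15.1% of all genes, and 10 had a negative change. In bulk muscle, fewer cells of a type and less RNA per cell cannot be told apart. Also called lower in knockout against D489V were 7 of 10 adipocyte markers, 7 of 8 Schwann cell and nerve markers and 5 of 5 tested erythrocyte markers. The adipocyte sums were 73509 to 146734 in controls, with a knockout range of 52275 to 112637 and a D489V range of 116856 to 187178. The nerve sums were 8998 to 14510 in controls, with ranges of 6393 to 10002 and 12548 to 50426 in the same order. The erythrocyte sums were 5682 to 8420 in controls, 3175 to 8038 in knockout and 12462 to 22164 in D489V, so that the D489V samples were the ones apart from the controls. Against control, the median log2 change in D489V was 1.54 for adipocyte and 1.2602 for erythrocyte markers, and in knockout it was -0.19 and -0.37. In D489V limma called 0 of these markers. An unadjusted p under 0.05 was seen there for 4 of 10 and 6 of 6, against 9.43% of all genes. Mural cell markers were called lower for 4 of 10 and higher for 1. Lymphatic endothelial markers were called for 0 of 6 tested, with sums of 756 to 785 in controls, 676 to 900 in knockout and 666 to 1065 in D489V, while Ccl21a of that list was listed at 0 throughout. The part of the adipocyte, nerve, erythrocyte and mural cell markers in the Vegfc and Angpt2 results was not tested.

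Relative to 1000 counts of the endothelial marker sum, a measure chosen after the values were seen, Angpt2 was 5.43, 6.02, 4.93, 5.93 and 6.15 in controls, 4.63, 5.29, 7.75, 5.55 and 8.05 in knockout and 6.60, 6.37, 7.82, 6.59 and 6.46 in D489V. On this scale knockout 3 and 5 lay with or above the D489V samples, and the mutant groups overlapped. All 5 D489V samples, at 6.37 to 7.82, lay above all 5 controls, at 4.93 to 6.15, which was not so for the unscaled values. The share of all genes that would separate these groups on this scale was not computed, and this separation was not tested. Vegfc on the same scale was 4.00, 4.08, 3.25, 4.47 and 5.01 in controls, 4.09, 3.53, 2.52, 2.85 and 2.31 in knockout and 3.74, 5.27, 5.36, 4.04 and 3.77 in D489V. Knockout replicates 3 to 5 remained the lowest of all 15 samples, while knockout 1 and 2 lay within or near the other groups.

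**Figure D3:**
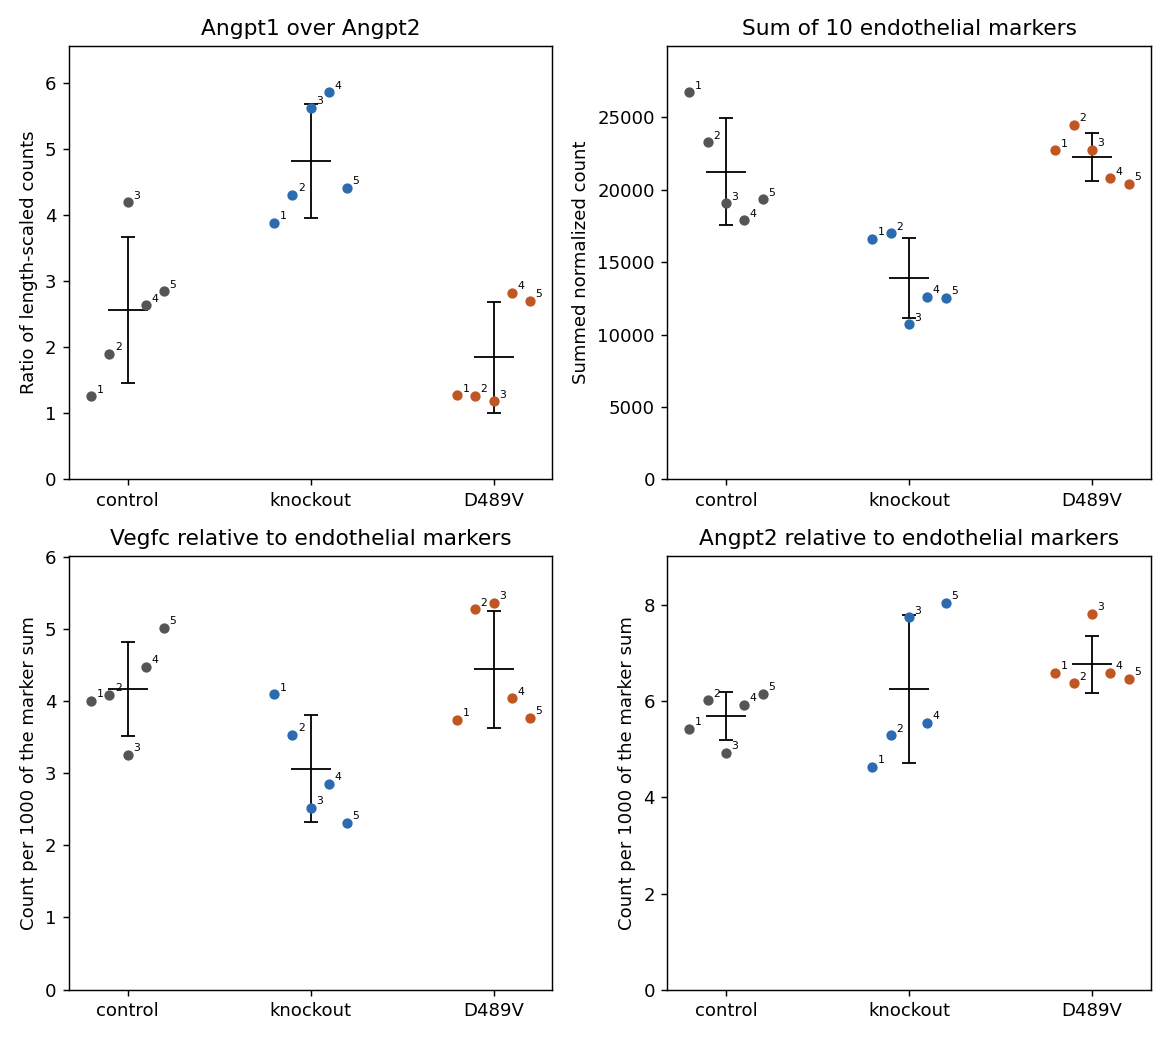
Length-scaled ratio of Angpt1 to Angpt2, summed normalized count of 10 endothelial markers, and Vegfc and Angpt2 per 1000 counts of that sum (vertical axes, from 0), by group. Points are samples numbered by replicate, with mean and standard deviation (n = 5). The endothelial sum was 10714 to 17001 in knockout, below all other samples, and Angpt2 relative to it was 4.63 to 8.05 in knockout, overlapping both other groups. On this scale, chosen after the values were seen, all D489V samples lay above all controls for Angpt2, which was not so for the unscaled values and was not tested.

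Apln, the apelin peptide gene, was the ligand that separated D489V from control. Controls 1 to 5 held 285, 259, 268, 745 and 306, knockout samples 115, 436, 176, 189 and 225, and D489V samples 113, 156, 253, 168 and 126. All D489V samples lay below all controls, although D489V 3, at 253, was close to control 2, at 259. The exact permutation p was 0.00794, again the lowest value attainable. It follows from the groups not overlapping, as was so for 2.16% of all genes, and adds nothing to that. The log2 change in D489V against control was -1.11 (95% confidence interval -1.77 to -0.46), which did not pass over all genes (limma adjusted p 0.236). Without control replicate 4, which stood far above the other controls, it was -0.83 (limma adjusted p 0.297). In knockout against control Apln changed by -0.71 (limma adjusted p 0.357), by -0.43 without control replicate 4 and by -0.98 without knockout replicate 2. The mutant groups overlapped, with a difference of 0.40 (95% confidence interval -0.28 to 1.08, limma adjusted p 0.374).

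Cxcl12, the chemokine, held 3243, 2875, 2363, 2457 and 2602 in controls, 2204, 2577, 2738, 2351 and 2057 in knockout, and 2582, 2702, 3521, 2563 and 2515 in D489V. The groups overlapped throughout, and its log2 changes of -0.18 and 0.03 (knockout and D489V against control) and -0.21 (between the mutant groups) had limma adjusted p of 0.423, 0.95 and 0.180. Fgf1, which lacks a classical secretion signal, held 414, 491, 762, 941 and 769 in controls, 578, 504, 742, 888 and 904 in knockout, and 459, 490, 785, 651 and 738 in D489V. Samples 1 and 2 were the lowest of each group, so the range within a group was wider than any difference between group means. The log2 changes were 0.13, -0.08 and 0.21 in the same order, with 95% confidence intervals from -0.59 at the lowest to 0.65 at the highest.

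The receptors of these ligands were lower in knockout than in D489V for several of the endothelial kinases. In knockout against D489V, 6 of 14 receptor genes were called, 42.9% against 20.8% of all genes, all lower in knockout. They were Kdr and Flt1, the Vegfa receptors, their co-receptors Nrp1 and Nrp2, and Tek and Tie1, the angiopoietin receptor and its partner. Kdr was 1686 ± 481 in knockout, 2989 ± 483 in controls and 3002 ± 391 in D489V (SD, n = 5). Knockout samples ranged from 1260 to 2246, below the control range of 2371 to 3631 and the D489V range of 2516 to 3520. Knockout 1 and 2 held 2246 and 2158. Knockout 3 to 5, the replicates with high lymphocyte marker levels, held 1486, 1260 and 1278. Its log2 change was -0.87 in knockout against D489V (limma adjusted p 0.00778) and -0.86 in knockout against control (limma adjusted p 0.227). Tek, at 587 to 815 in knockout, 860 to 1111 in controls and 928 to 1087 in D489V, had changes of -0.54 (limma adjusted p 0.00706) and -0.47 (limma adjusted p 0.243). Tie1, Nrp2, Nrp1 and Flt1 differed by -0.53, -0.57, -0.44 and -0.36 in knockout against D489V. Kdr and Tie1 are also among the endothelial markers, so they do not add to those. Relative to the endothelial marker sum, on the scale above, Tek was 45.9 to 64.9 in knockout and 43.0 to 47.8 in D489V. Flt1 was 91.0 to 154.9 and 93.1 to 105.4 in the same order. On average neither was lower in knockout. Kdr is itself one of these markers, so it was scaled to the sum of the others, without Kdr. On that scale Kdr was 111.0 to 161.0 and 124.3 to 185.7, so the groups overlapped. Nrp1 and Nrp2 were not scaled in this way. Whether the receptors were lower beyond the endothelial markers was not tested.

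Flt4, the Vegfc receptor, was at 215 to 305 in controls, 149 to 254 in knockout and 234 to 287 in D489V, with a log2 change of -0.24 in knockout against D489V (limma adjusted p 0.249). Aplnr, the apelin receptor, had group means of 1185 in controls, 618 in knockout and 756 in D489V, with changes from control of -0.90 (limma adjusted p 0.294) and -0.58 (limma adjusted p 0.457), below 0 as those of its ligand. Of the chemokine receptors, Cxcr4 had changes from control of -0.57 and -0.62 and Ackr3 of -0.18 and 0.03. Fgfr3 had changes of 0.77 in knockout and 0.64 in D489V against control (limma adjusted p 0.296 and 0.245). All D489V samples, at 138 to 268, lay above all controls, at 106 to 137, as was so for 1.1% of all genes. Fgfr1 and Fgfr4 had changes from control of -0.04 and -0.61 in knockout and 0.18 and -0.17 in D489V. limma called 0 of 14 receptors in each comparison with control, where 8 and 2 had an unadjusted p under 0.05, against 15.1% and 9.43% of all genes. The median log2 change of the receptors was -0.46 in knockout against control, 0.02 in D489V against control and -0.34 in knockout against D489V, against 0.01, 0.00 and 0.00 over all genes tested.

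**Figure D4:**
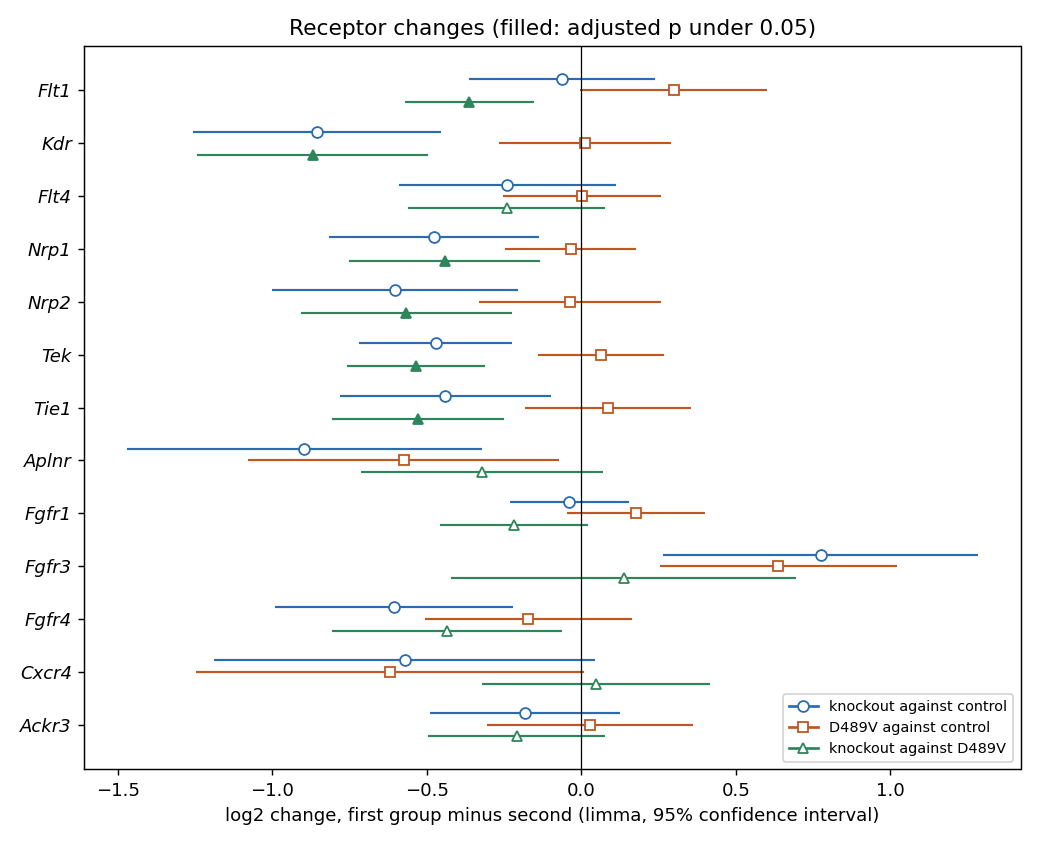
log2 change with 95% confidence interval from limma (horizontal axis) of the 13 receptor genes with a mean of 50 or more, in the 3 comparisons. Filled symbols passed an adjusted p of 0.05: Flt1, Kdr, Nrp1, Nrp2, Tek and Tie1, all in knockout against D489V.

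Genes around the ligands were followed in 6 further lists. Their counts in knockout against D489V stand beside the 20.8% of all genes called there, 10.5% higher and 10.3% lower. Of 15 genes of sprouting tip cells, 8 were called lower and 0 higher (53.3% called): Esm1, Dll4, Pdgfb, Kdr, Nrp1, Igfbp3, Unc5b and Angpt2, of which Angpt2, Kdr and Nrp1 are already counted above. Dll4, the Notch ligand of tip cells, had a mean of 344 in knockout, 608 in controls and 611 in D489V. Pdgfb, through which endothelium recruits pericytes, was 985 ± 128 in knockout, 1596 ± 48.3 in controls and 1355 ± 145 in D489V (SD, n = 5), and its log2 change of -0.71 in knockout against control came near the threshold (limma adjusted p 0.0787). Of 17 tested other ligands, 4 were called lower and 0 higher: Adm, Efnb2, Angptl4 and Pdgfb, or 23.5%, near the share of all genes. Of 17 tested inhibitors and modulators, 3 were called lower and 0 higher, or 17.6%, also near the share of all genes: Adamts1, Ptprb and Ctsl, of which Adamts1 encodes a protease with antiangiogenic activity and Ptprb a phosphatase that restrains Tek.

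Upstream of Vegfa, the hypoxia factor genes Hif1a and Epas1 were not called in any of the 3 comparisons. Hif1a means were 618 in controls, 641 in knockout and 608 in D489V, and Epas1 means were 3052, 3055 and 3899. Ppargc1a, a coactivator that can drive Vegfa in muscle, was 1134 ± 618 in knockout, at 546 to 2056, against 523 ± 79.1 in controls and 530 ± 142 in D489V (SD, n = 5), and did not pass in knockout against D489V (log2 change 0.97, limma adjusted p 0.0510). Of the 17 regulators, 6 were called higher in knockout than in D489V and 0 lower (35.3% called, against 20.8% of all genes): Egln2, Hif1an, Esrra, Esrrb, Esrrg and Prkaa2, of which the first pair encode oxygen sensors that restrain hypoxia factors and the Esrr genes encode nuclear receptors partnered by that coactivator. Of 20 hypoxia targets (35% called), 3 were called higher (P4ha1, P4ha2 and Pfkfb4) and 4 lower (Ndrg1, Pfkfb3, Car9 and Ddit4), with a median of -0.03, so the list did not move one way. Pfkfb3, a glycolytic regulator, had means of 8493 in controls, 5433 in knockout and 15632 in D489V.

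Genes that respond early to Vegfa in endothelium had 9 of 17 tested members called lower and 2 called higher in knockout against D489V (64.7% called, against 20.8% of all genes). The lower ones were Apold1, Egr1, Egr3, Nr4a2, Dusp1, Dusp6, Klf4, Fosb and Ets2, and Rcan1 and Nr4a3 were higher. Egr1, a transcription factor, had a mean of 483 in knockout and 1489 in D489V, and ranged from 430 to 2840 among controls. Rcan1, a calcineurin inhibitor, had means of 3233 and 1622, with controls from 1024 to 4672. Many of these genes respond to other stimuli too. Vegfa itself had a log2 change of -0.27 in knockout against D489V and was not called (limma adjusted p 0.0681). It passed the threshold in 2 of 21 alternatives. Whether Vegfa had a part in the early response differences was not tested. In D489V against control the only gene called in the receptor list or these 6 lists was Apold1, an endothelial early response gene (limma adjusted p 0.0243). An unadjusted limma p under 0.05 was seen there for 7 of 17 early response genes, with a median log2 change of 0.42 over the list, and for 7 of 20 hypoxia targets. It was also seen for 3 of 15 tip cell genes, 2 of 17 other ligands, 2 of 17 inhibitors and modulators and 1 of 17 regulators, against 9.43% of all genes. In knockout against control limma called 0 in these lists. Unadjusted p was under 0.05 for 9 of 15 tip cell genes, 10 of 17 early response genes, 8 of 17 regulators, 5 of 17 other ligands, 4 of 20 hypoxia targets and 0 of 17 inhibitors and modulators, against 15.1% of all genes.

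For each ligand, the genes with the most similar pattern of log2(value + 1) over the 15 samples were found among 12158 genes with a mean of 50 or more. As the highest of many values, these Pearson correlations are given without a test, and they mix differences between and within groups. Angpt1 was closest to Smad2 (r = 0.97), Med14 and Dennd4c. Vegfc was closest to Elk3 (r = 0.95), Prpsap1 and Gas2l1, and Angpt2 to Tm4sf1 (r = 0.94), Tbkbp1 and Cacna1h. Cxcl12 was closest to Plxnb1 (r = 0.94), with Entr1 also near, and Vegfa to Gjc3 (r = 0.92), the pseudogene Pdcd5-ps and Mea1. Fgf1 was closest to Fhl1 (r = 0.91), Sim2 and Myom3, and Apln to Ccnd1 (r = 0.90), Elp6 and Prc1. The lowest values were those of Vegfb, with Smim19 (r = 0.87), Tmem134 and Mrps24, and of Pgf, with Fstl3 (r = 0.81), Sema7a and Asap1. Among the ligands themselves, Vegfc and Angpt2 had the highest correlation (r = 0.78) and Vegfc and Angpt1 the lowest (r = -0.79) of all pairs.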

How the data were processed

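RNA with poly(A) enrichment was sequenced from skeletal muscle with a directional kit, per the labels' protocols. The unit of the deposited values is a score, namely counts per gene normalized and rounded to whole numbers by the authors, per the name they gave the 2 tables and the values in them. The submitters' processing notes name Trim Galore 0.6.0, cutadapt, FastQC, STAR 2.7.0e, DESeq2 1.26.0 and the build GRCm38, without roles. The counting tool and strand setting are not given in the sources used here. Each table holds the controls and 1 mutant group. The 5 control columns were identical in both, and the joined samples were on a common scale (median ratio to the per-gene geometric mean 1.0069 to 1.0097). Joining was by gene ID. All 55536 IDs matched GENCODE release M21, which gave names and exon lengths (the union of all exons).

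For each pair of groups, log2(value + 1) was fitted with lmFit and trended eBayes of limma 3.58.1 (R 4.3.3), two-sided, over genes with at least 10 normalized counts in 5 of 10 samples, with Benjamini-Hochberg adjustment over all genes tested. Such fold changes understate changes of low genes. Depth as reads per sample is not known from rounded values. Alternatives changed the pseudocount, filter, scaling, variance model, weights and samples, and added the replicate number as a block. The text names all 9 ligands, every called gene of the neighbour lists, receptors with a mean of 50 or more, and the 3 most correlated genes of each ligand, of which 1 gene is not reported here. Members, lists and tests were chosen with earlier results of these data known. Promoter windows are from RefSeq. Other steps ran in Python 3.11.15 with pandas 2.3.3, numpy 2.4.6 and, for figures, matplotlib 3.10.9.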

Additional observations from a re-analysis of the deposited data

Results flagged for a closer look

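In 66 groups of 5 values (9 ligands and 13 receptors in 3 groups), the highest or lowest sample was far from the rest, by more than 0.71 of the group's range on the log2 scale, in 3, against 3.3 by chance. Apln in control replicate 4 was 745 against 259 to 306 in the other controls (gap 0.842 of the range). Cxcl12 in D489V replicate 3, the sample with the highest nerve marker level, was 3521 against 2515 to 2702 (gap 0.787). Ackr3, the scavenging receptor of Cxcl12, was 524 in control replicate 5 against 761 to 833 (gap 0.805).

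The change from control differed between knockout and D489V, by the direct limma test of both groups, for 2 ligands and 6 receptors. The difference, knockout minus D489V, was -1.22 for Vegfc and -0.83 for Angpt2 on the log2 scale. It was -0.87 for Kdr, -0.57 for Nrp2, -0.54 for Tek, -0.53 for Tie1, -0.44 for Nrp1 and -0.36 for Flt1. These genes were among the 20.8% of all genes for which this test passed.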

How the results depend on the processing

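Of 567 values for the 27 ligand changes under 21 alternatives each, 545 kept direction and side of the threshold, 9 passed it where the reported value did not, 1 lost it and 12 changed sign. The 1 lost was Vegfc in knockout against D489V without control 5 and knockout 3 to 5 (-0.60), a setting chosen after seeing the data that leaves only knockout 1 and 2. It also gave 1 called ligand and 565 called genes there, 3 called genes in knockout against control, and Fgf1 at -0.19 in knockout against control and -0.18 in knockout against D489V. Array weights gave 4 called ligands in knockout against D489V, and leaving out one replicate 2 to 4 (4 without D489V 5). Called ligands stayed at 0 in both comparisons with control in all alternatives. Upper-quartile rescaling turned Vegfa to 0.024, and quantile normalization turned Vegfb to -0.025, both in knockout against control. Over the fits without one replicate, Vegfa ran from -0.11 to 0.030 and Fgf1 from -0.034 to 0.26 in knockout against control. Fgf1 ran from -0.24 to 0.055, Pgf from -0.063 to 0.16 and Cxcl12 from -0.055 to 0.10 in D489V against control. All genes called in knockout against control were 3 with quantile normalization and 16 with all 15 samples in 1 fit, and 1 to 7 without one replicate (7 without knockout 2). In D489V against control they were 16 with quantile normalization, 19 with upper-quartile rescaling or pseudocount 5, 4 among genes with a mean of at least 50, 21 with robust eBayes, 86 with array weights, 1 with all 15 samples in 1 fit, and 2 (without D489V 2) to 26 (without D489V 3) without one replicate. In knockout against D489V they were 1398 (without D489V 1) to 3686 (without D489V 4) without one replicate, and the share higher in knockout was 60.6% with upper-quartile rescaling against 50.3% as reported. For all of these, the cause was not tested.

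With the replicate block, 0, 0 and 3 ligands were called for knockout and D489V against control and between the mutant groups, and 1, 7 and 2208 of all genes. The added ligand was Angpt1 (0.63, limma adjusted p 0.0395). The labels give same-numbered samples only a number in common, and whether they shared a litter or batch is not known. Deviations of same-numbered samples had correlations from -0.21 to 0.24, from -0.40 to 0.39 and from -0.11 to 0.10, and 2, 2 and 1 of 5 correlated best with their own number. In knockout against control, the block lowered the standard error of Fgf1 from 0.239 to 0.115 and of Angpt1 from 0.195 to 0.110. It raised that of others, such as Vegfa from 0.109 to 0.132. Alternatives with edgeR and DESeq2 were planned and left out, since the values had been normalized and rounded. At values of 27 to 129 for Vegfc and 53 to 111 for Pgf, counting error limits what can be seen.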

Other observations

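Fgf1 values are given here beside the slow fibre markers of the same samples. The summed level of 10 slow fibre markers, Myh7 and Tnnt1 among them, was 10716 and 26976 in knockout 1 and 2, where Fgf1 was 578 and 504, and 232292, 173893 and 150730 in knockout 3 to 5, where it was 742, 888 and 904. In D489V 3, with the highest slow fibre sum of its group (236967 against 49441 to 73139), Fgf1 was also the highest of the group, at 785. In controls the sums of samples 1 to 5 were 22089, 60281, 42574, 99207 and 219870, and control 4, not control 5, had the most Fgf1. This was seen after the values and was not tested, and the slow fibre list itself had 0 called genes in both comparisons with control by limma, none of them with an unadjusted p under 0.05.

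Vegfa relative to the receptor Kdr, scaled for length, was 5.55 to 6.57 in controls, 7.27 to 14.9 in knockout and 5.85 to 9.38 in D489V, and every knockout sample lay above every control. Kdr alone, at 1260 to 2246 in knockout and 2371 to 3631 in controls, already separated these groups, as did 1.25% of all genes in this direction. Vegfa itself changed by -0.02 there (limma adjusted p 0.926). Relative to Flt1, Vegfa was 12.4 to 17.5, 12.3 to 16.0 and 13.2 to 14.7, with all groups overlapping. Both ratios are descriptions chosen with the values in view.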
